A study of Equus caballus with 45 samples.

Results

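The nuclear-encoded subunits of the respiratory chain and of ATP synthase were followed through RNA sequencing of equine bone marrow mesenchymal stromal cells (MSC) and 3 kinds of joint cells. Members were all genes of the count tables whose symbol starts with NDUFA, NDUFB, NDUFC, NDUFS or NDUFV and a digit (complex I), is SDHA, SDHB, SDHC or SDHD (complex II), starts with UQCR (complex III), starts with COX4 to COX8 and a letter A, B or C (complex IV), or starts with ATP5F1, ATP5MC, ATP5P, ATP5ME, ATP5MF or ATP5MG (complex V). This gave 71 of 20881 listed genes, 35 for complex I, 4 for complex II, 7 for complex III, 12 for complex IV and 13 for complex V.

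Complex I takes electrons from NADH and complex II takes them from succinate. Both pass them to ubiquinone, from which complex III carries them to cytochrome c and complex IV on to oxygen. The proton gradient built on the way drives complex V, ATP synthase. Macrophages are known to shift between oxidative and glycolytic metabolism with their activation state, and cartilage cells live at low oxygen and draw largely on glycolysis.

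The MSC set held 12 libraries from sternal marrow of 3 horses, the donors PC, 99 and 92, each with 1 untreated library, 1 given a TLR3 agonist (poly I:C), 1 given a STING agonist (2′3′-cGAMP) and 1 labelled CpG. The joint cell set held 33 libraries, 11 each of synoviocytes, chondrocytes and macrophages grown from blood monocytes. In each cell type, 9 libraries received IL-1β and TNF-α plus conditioned medium (CM), for which MSC from PC, ORC and AG1, the medium donors, had been left resting or activated through TLR3 or STING, 1 received the cytokines only and 1 no addition. The agonists were applied for 2 h and the medium for 24 h, as 1 part CM to 3 parts of fresh medium. After a wash the cells were kept in fresh medium before collection. The labels give the cytokines at 20 ng/mL for synoviocytes and 10 ng/mL for macrophages, while the methods name the higher dose for both. They give no dose for chondrocytes, which were handled like synoviocytes according to the methods. The CM was diluted in macrophage medium for macrophages and in complete medium for synoviocytes, so these media cannot be told apart from the cell type. The libraries without CM also carry a donor name in the labels, PC for the synoviocytes with cytokines only and ORC for the rest, and what the name marks there is not stated. Each joint cell type came from 1 horse, and the names of the 3 libraries of a condition are read here as donors of the medium. A difference in culture that goes with a name cannot be told apart from the medium. The methods name 3 MSC donor horses, while the names of the MSC libraries and of the media share PC only. The p-values between joint cell types measure the spread between such libraries and not between horses.

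Total counts ran from 23525704 to 54103873 per library, and a count of 0 allows up to 3 counts, 0.0554 to 0.128 CPM across libraries, where CPM stands for counts scaled to a common library size. The 14 macrophage marker genes summed to between 12146 and 17567 CPM in macrophages and to at most 147 CPM in synoviocytes and 164 CPM in chondrocytes. The 10 chondrocyte marker genes summed to 159 to 734 CPM in chondrocytes and to 148 to 343 CPM in synoviocytes, so they did not separate these libraries, and chondrocyte is used here as the label only. The synovial fibroblast list summed to 52230 to 85406 CPM in synoviocytes and to 18217 to 44386 CPM in chondrocytes. The 13 subunits encoded by the mitochondrial genome are listed at 0 in every library and were not measured.

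Of the 71 members, 69 had enough counts to be tested. NDUFA2, an accessory subunit of complex I, had 0 to 2 counts per library, and COX6A2, the heart and muscle form of a complex IV subunit, had 0 to 1. COX6B2, the testis form of another complex IV subunit, failed the count minimum in macrophages, where 68 members were tested.

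The members together took a larger share of all counts in macrophages than in synoviocytes or chondrocytes. The share ran from 0.795% to 1.00% over the 11 macrophage libraries, with a median of 0.891%. It ran from 0.490% to 0.555% in synoviocytes and from 0.504% to 0.570% in chondrocytes. The macrophage libraries thus lay above all 22 libraries of the other joint cells, while synoviocyte and chondrocyte libraries overlapped. In MSC the share was spread more widely, from 0.604% to 1.07% with a median of 0.794%, but these libraries are in a table of their own, and no test was run across tables. In bulk RNA, fewer cells of a type and less RNA per cell cannot be told apart.

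The complexes differed in how far macrophages stood apart. Complex II took a median of 0.0697% of counts in macrophages against 0.0353% in synoviocytes and 0.0374% in chondrocytes. Complex III took 0.108% against 0.050% and 0.049%, complex IV 0.138% against 0.0717% and 0.0662%, and complex V 0.342% against 0.182% and 0.169%. Complex I was closest between cell types, with 0.224% in macrophages, 0.167% in synoviocytes and 0.201% in chondrocytes. A single member made up much of the chondrocyte value. Without NDUFA4L2, complex I took a median of 0.147% in both chondrocytes and synoviocytes and 0.224% in macrophages.

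**Figure D1:**
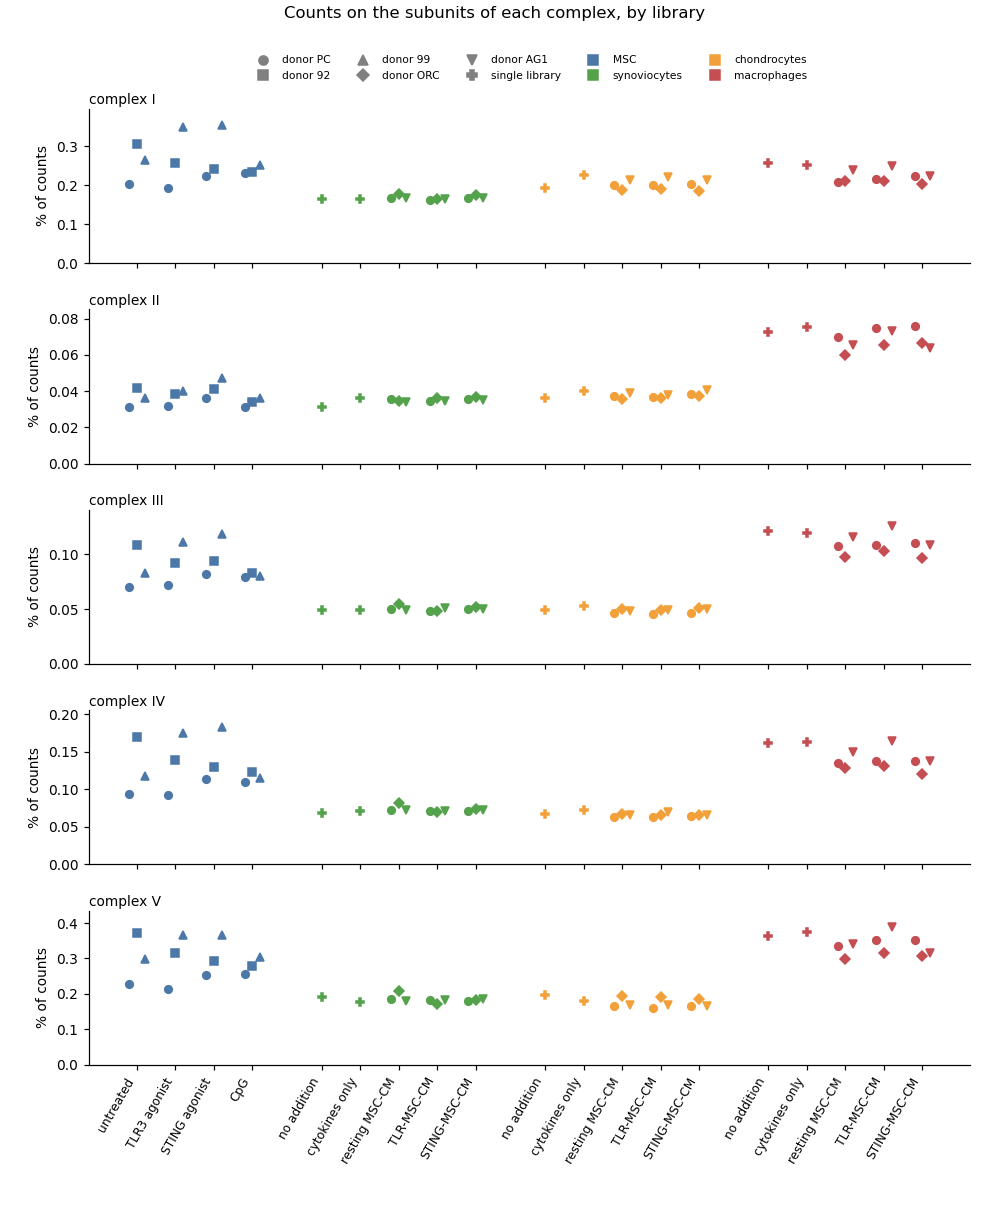
Share of all counts (%) on the subunits of each complex, 1 panel per complex, by condition. Each point is 1 library, coloured by cell type and shaped by donor of the MSC or of the medium. Macrophage libraries lie above those of synoviocytes and chondrocytes in complexes II to V, and MSC libraries spread by donor.

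Cell types were compared first under resting MSC-CM, with 3 libraries each. Macrophages were higher than synoviocytes for 56 of 69 members and lower for 4, where 36.6% of the 15599 genes tested were higher and 35.1% lower (edgeR's quasi-likelihood test, Benjamini-Hochberg adjusted p under 0.05). The share higher among members was 81.2%. The median log2 difference was 0.65 over the members and 0.04 over all genes. Against chondrocytes, 58 members were higher and 4 lower, which is 84.1% higher, where 36.6% of genes were higher and 34.9% lower. Here the median was 0.72. Among the lower members in both comparisons, COX6B2 passed the count minimum only through the cells in which it was detected, so its direction was fixed by that filter. The order of the complexes by median log2 difference from synoviocytes was complex III at 1.17, II at 0.92, IV at 0.91, V at 0.75 and I at 0.45.

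**Figure D2:**
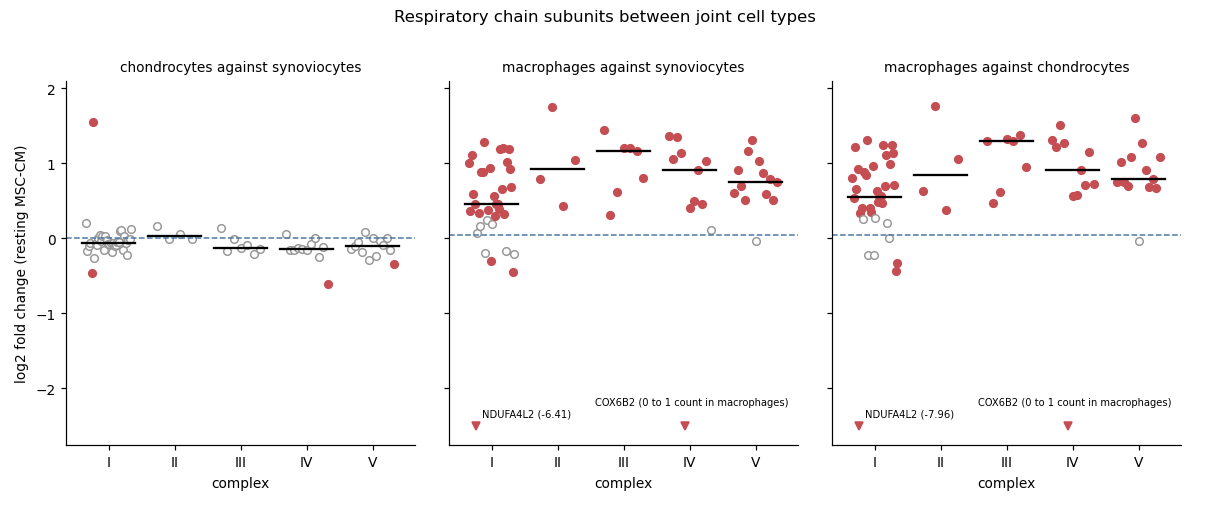
Log2 fold change of each tested member between joint cell types under resting MSC-CM, by complex. Filled red points passed an adjusted p of 0.05, black bars are medians of a complex, the dashed line is the median over all genes, and triangles at the lower edge are members beyond the axis. Most points lie above 0 in the comparisons with macrophages and near 0 between chondrocytes and synoviocytes.

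In complex III, 7 of 7 members passed the test against either cell type. UQCR11, a small accessory subunit, differed least from synoviocytes, by 0.31 on the log2 scale, and its call was lost without the macrophage library of donor PC or the synoviocyte library of donor AG1 or PC. UQCR10, a small accessory subunit, had 35.0, 35.5 and 36.8 CPM in synoviocytes, 36.5, 39.7 and 41.9 CPM in chondrocytes and 91.6, 94.2 and 107 CPM in macrophages. No macrophage library overlapped the others, and the difference from synoviocytes was 2.71-fold (log2 1.44, SE 0.0969, edgeR adjusted p = 2.5e-07). UQCRC1, a core protein of the complex, had 135 to 148 CPM in synoviocytes, 119 to 144 CPM in chondrocytes and 284 to 362 CPM in macrophages, 2.29 times the synoviocyte level. UQCRFS1, the Rieske iron-sulfur protein, was higher by 1.17 and 1.37 on the log2 scale than in synoviocytes and chondrocytes. UQCRB, which helps to bind ubiquinone, was higher by 0.61 in both.

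Complex II is the enzyme that the respiratory chain shares with the tricarboxylic acid cycle, and its 4 genes all passed the test in both comparisons. SDHB, the iron-sulfur subunit, had 42.0, 43.9 and 46.5 CPM in synoviocytes, 42.1, 43.9 and 45.4 CPM in chondrocytes and 136, 151 and 162 CPM in macrophages. That was 3.36 times the synoviocyte level (log2 1.75, SE 0.097, edgeR adjusted p = 5.46e-08) and 3.38 times the chondrocyte level. The other 3 subunits differed less. SDHD, a membrane anchor, was higher by 1.04 and 1.05 on the log2 scale, SDHA, the flavoprotein, by 0.79 and 0.63, and SDHC, the second anchor, by 0.43 and 0.37.

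In complex IV, 9 of 11 tested members were higher in macrophages than in synoviocytes and 1 was lower, and 10 of 11 were higher than in chondrocytes. COX5A had 57.1, 60.6 and 62.5 CPM in synoviocytes, 60.1, 62.4 and 64.0 CPM in chondrocytes and 144, 156 and 165 CPM in macrophages. The macrophage libraries lay 2.56-fold above those of synoviocytes (log2 1.36, SE 0.0903, edgeR adjusted p = 2.24e-07). COX6A1, the widely expressed form of the subunit whose muscle form is COX6A2, was 2.54 and 2.84 times higher. Smaller differences were seen for COX6C, by 0.41 and 0.57 on the log2 scale, and for COX7A2L, which takes part in supercomplexes, by 0.46 and 0.71. COX8A, the widely expressed form of a small subunit, had 170 to 212 CPM in synoviocytes and 187 to 226 CPM in macrophages, which overlap, and the difference of 0.11 on the log2 scale did not pass the test (edgeR adjusted p = 0.489).

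COX6B2 was the complex IV member that was lower in macrophages. Its counts were few throughout, 3 to 24 per synoviocyte library, 1 to 25 per chondrocyte library and 0 to 1 per macrophage library, and it passed the count minimum through the cells in which it was detected. Pooled over the resting MSC-CM libraries, 56 counts in synoviocytes stood against 2 in macrophages, a ratio of 32.3 with a 95% exact interval of 8.54 to 274. Chondrocytes had 54 counts, a ratio of 29.4 with an interval of 7.75 to 249. These intervals cover counting error only.

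In complex V, 12 of 13 members were higher in macrophages in both comparisons. ATP5F1A and ATP5F1B, the α and β subunits of the catalytic head, were higher than in synoviocytes by 0.60 and 0.91 on the log2 scale and higher than in chondrocytes by 0.75 and 1.02. ATP5PO, which couples the head to the stalk, was higher by 0.75 and 1.09.

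The exception was 1 of the 3 genes for the c ring. ATP5MC1, ATP5MC2 and ATP5MC3 encode the same mature protein with different import sequences. ATP5MC1 had 40.2, 40.7 and 51.6 CPM in synoviocytes, 32.0, 33.5 and 42.7 CPM in chondrocytes and 101, 111 and 119 CPM in macrophages, 2.48 times the synoviocyte level (log2 1.31, SE 0.141, edgeR adjusted p = 1e-05). ATP5MC3 was 2.04 times higher than in synoviocytes and 2.41 times higher than in chondrocytes. ATP5MC2 had 115, 120 and 128 CPM in synoviocytes, 111, 113 and 137 CPM in chondrocytes and 111, 112 and 133 CPM in macrophages. Its libraries overlapped between all 3 cell types, and its log2 difference of -0.04 from either did not pass the test (edgeR adjusted p = 0.767 and 0.788). Leaving out 1 library in turn moved that difference between -0.12 and 0.02 against synoviocytes. The ratio of ATP5MC2 to ATP5MC3 ran from 0.388 to 0.490 over the 11 macrophage libraries, from 0.854 to 1.04 in synoviocytes, from 0.928 to 1.24 in chondrocytes and from 0.907 to 1.66 in MSC, so the macrophage libraries lay below all others.

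Complex I was the least uniform. Of 34 tested members, 24 were higher in macrophages than in synoviocytes and 3 lower, and 25 were higher than in chondrocytes and 3 lower. NDUFS1, the largest subunit of the NADH module, was among the most different, with 72.8 to 78.9 CPM in synoviocytes, 71.1 to 73.5 CPM in chondrocytes and 159 to 197 CPM in macrophages, 2.28 times the synoviocyte level (log2 1.19, edgeR adjusted p = 1.8e-06). NDUFV1, the flavoprotein of the same module, was higher by 0.69 and 0.71 on the log2 scale, and the accessory subunit NDUFA9 by 0.88 and 0.84. NDUFV2, also of the NADH module, went the other way, with 74.1 to 95.5 CPM in macrophages and up to 118 CPM in synoviocytes, where all 3 libraries were higher. It was lower in macrophages by 0.45 on the log2 scale (SE 0.147, edgeR adjusted p = 0.0189) and lower by 0.43 against chondrocytes, where 1 of 3 libraries, that with medium of donor ORC, lay at 86.6 CPM and within the macrophage range. Its call against synoviocytes was lost without the macrophage library of donor ORC or PC or the synoviocyte library of donor PC, and that against chondrocytes without the macrophage library of donor ORC or PC or the chondrocyte library of donor AG1 or PC. NDUFB5 passed as lower in macrophages against synoviocytes, by 0.30, a call lost without the ORC or PC library of either cell type. NDUFV3 passed as lower against chondrocytes, by 0.33. NDUFV2, NDUFB5 and NDUFV3 were chosen for mention after their values were seen.

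The largest difference of all members was in NDUFA4L2. Its paralog NDUFA4 is named for complex I but is now counted with complex IV, and NDUFA4L2 is known as a gene induced by low oxygen that restrains respiration. NDUFA4L2 had 171, 195 and 206 CPM in synoviocytes, 444, 597 and 624 CPM in chondrocytes and 1.38, 1.97 and 3.25 CPM in macrophages under resting MSC-CM. The 3 cell types did not overlap. Macrophages were 85.3-fold below synoviocytes (log2 -6.41, SE 0.289, edgeR adjusted p = 1.15e-08) and 249-fold below chondrocytes (log2 -7.96, SE 0.306, edgeR adjusted p = 3.65e-09), and chondrocytes were 2.92-fold above synoviocytes (log2 1.55, SE 0.225, edgeR adjusted p = 0.000967).

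NDUFA4 ran in the opposite order. It had 76.1, 79.0 and 81.3 CPM in synoviocytes, 53.6, 55.1 and 62.9 CPM in chondrocytes and 96.0, 106 and 126 CPM in macrophages. The ratio of NDUFA4L2 to NDUFA4 counts had a median of 10.2 in chondrocytes, 2.40 in synoviocytes, 1.30 in MSC and 0.0143 in macrophages. The range was 6.73 to 11.5 in chondrocytes and 2.16 to 2.70 in synoviocytes, with no overlap, while MSC ranged from 0.592 to 2.91 and covered the synoviocyte range. Because the genes differ in length, this ratio of counts is read between cell types and not as a ratio of transcript numbers.

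**Figure D3:**
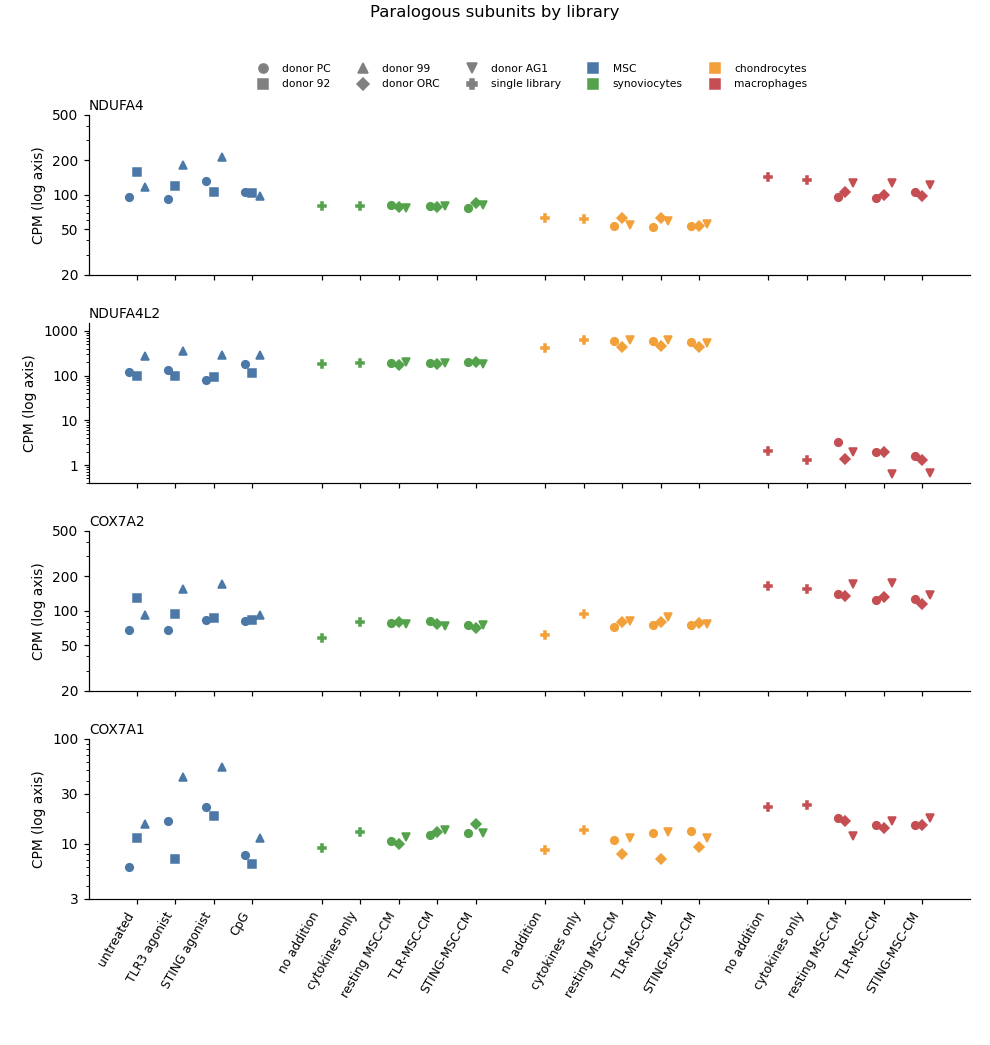
CPM (log axis) of NDUFA4, NDUFA4L2, COX7A2 and COX7A1 in each of the 45 libraries, by condition, coloured by cell type and shaped by donor. NDUFA4L2 separates all joint cell types by level in every condition, and COX7A1 spreads most widely in MSC given the TLR3 or STING agonist.

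Between chondrocytes and synoviocytes only 4 members passed the test. NDUFA4L2 was the 1 higher, where 8.31% of all genes were higher, and COX8A, NDUFA4 and ATP5PO were the 3 lower, where 9.84% were lower. COX8A had 170, 173 and 212 CPM in synoviocytes and 107, 114 and 143 CPM in chondrocytes, 1.52-fold lower without overlap (log2 -0.60, SE 0.14, edgeR adjusted p = 0.0137). NDUFA4 was 1.37-fold lower (edgeR adjusted p = 0.0194) and ATP5PO 1.27-fold lower (edgeR adjusted p = 0.046). The median over members was -0.07. The count was not stable in these groups of 3. It was 1, with NDUFA4L2 left, without the synoviocyte library of donor ORC or the chondrocyte library of donor AG1 or PC, 2 without the synoviocyte library of donor PC, and 6 without the chondrocyte library of donor ORC. It was 20, or 29.0% of members, in a fit of all 27 libraries with the kind of medium as a term, where 44.6% of all genes were called. The share of all genes called was 18.1% in the fit of the 3 against 3 libraries, 24.2% without the chondrocyte library of donor ORC, and 11.5% to 12.7% in the other fits with 1 library left out, above the share of members in each. SDHB did not pass the test between these cells, at a log2 difference of -0.01 (SE 0.0951).

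The same order held over all 11 libraries of a cell type, whatever the addition. The lowest macrophage library was above the highest synoviocyte library for 53 of 69 members, where 28.7% of genes were so separated, and macrophages were below for 2, COX6B2 and NDUFA4L2, where 26.9% were. Against chondrocytes the counts were 54 and 2, where 27.2% and 24.8% of genes were separated. COX6B2, lower in both, passed the count minimum only through the cells in which it was detected, so its direction was fixed by that filter. Chondrocytes were above synoviocytes for 2, NDUFA4L2 and SDHA, where 4.94% of genes were, and below for 3, COX8A, NDUFA4 and NDUFA5, where 6.65% were.

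Other genes of the pathway were counted in the same fits. Beside the 36.6% of all genes that were higher in macrophages than in synoviocytes and the 35.1% that were lower, of 8 nuclear subunits with other symbols, 7 were higher in macrophages than in synoviocytes and 0 lower, and all 8 were higher than in chondrocytes. CYCS, cytochrome c, was higher by 1.23 and 1.48 on the log2 scale and COX4I1 by 1.09 and 1.13. Of 15 tricarboxylic acid cycle genes, 11 were higher in both comparisons, with 1 lower against synoviocytes and 2 against chondrocytes. Assembly factors were more mixed, with 22 of 45 higher and 9 lower against synoviocytes, as were mitochondrial ribosomal proteins, with 34 of 71 higher and 9 lower. Of 13 regulators of mitochondrial biogenesis, 4 were higher and 3 lower, not above the shares of all genes in either direction. PPARGC1B, a coactivator of mitochondrial genes, had 73.3 to 124 CPM in macrophages and at most 0.776 CPM in synoviocytes and 1.21 CPM in chondrocytes. TFAM, which packs and transcribes mitochondrial DNA, was lower in macrophages by 0.80 and 0.78 on the log2 scale.

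Treatments were compared next, to see whether activation of the MSC or of the MSC that conditioned the medium went with a change in these subunits. With edgeR, no member passed an adjusted p of 0.05 in any of the 13 comparisons within a cell type, where 0% of all genes did. DESeq2 also called no member, but its share of all genes is not given here, so that count stands without a background. These fits and the unadjusted shares below have no donor term. With the donor as a block, members again counted 0. Of all genes, 80 then passed in macrophages for STING-MSC-CM against resting MSC-CM and 336 against TLR-MSC-CM, with 0 to 2 in each other comparison. At an unadjusted p under 0.05 the members counted 0 of 69 in MSC given the TLR3 agonist, the STING agonist or CpG against untreated and in STING against TLR3 agonist, where 1.15%, 2.1%, 0.305% and 0.242% of genes passed. In chondrocytes the members counted 0 in all 3 comparisons, where 0.559% (TLR-MSC-CM against resting MSC-CM), 0.909% (STING-MSC-CM against resting) and 0.811% (STING against TLR) of genes passed. In macrophages they counted 0, 1 and 0 of 68, where 2.13%, 4.76% and 6.6% of genes passed. In synoviocytes they counted 7, 2 and 1 of 69, where 10%, 7.6% and 2.02% of genes passed. The 7 of 69 in synoviocytes under TLR-MSC-CM, 10.1%, are near the share of all genes.

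**Figure D4:**
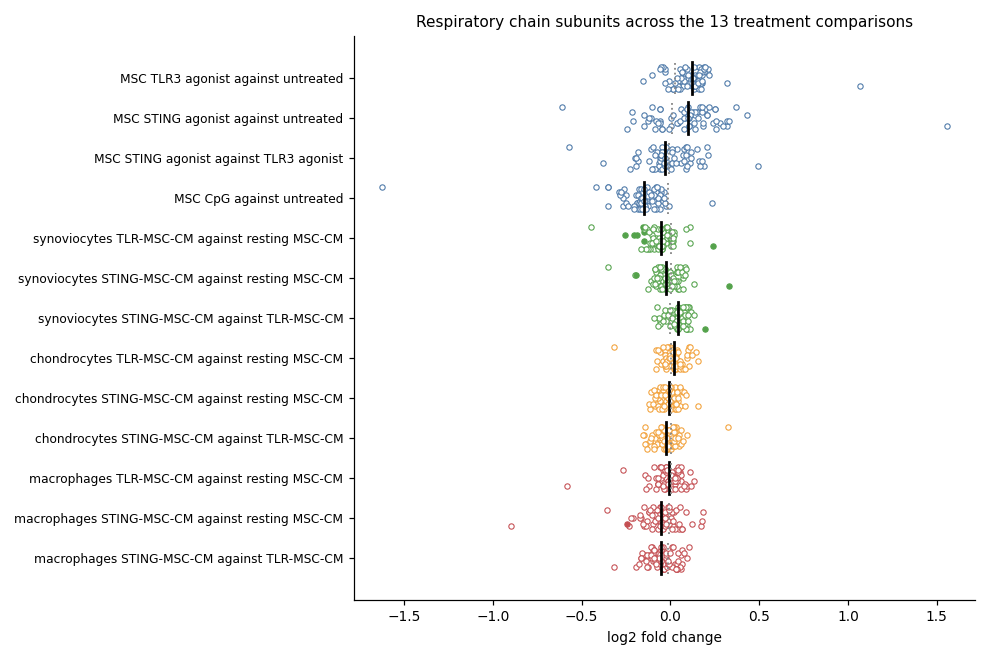
Log2 fold change of each tested member in the 13 treatment comparisons, coloured by cell type. Filled points had an unadjusted p under 0.05, black bars are medians of the members and dotted bars medians of all genes. The spread is widest in MSC, and COX7A1 is the rightmost point there at 1.56 for the STING agonist.

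In synoviocytes, the small differences were in named members. ATP5MC1 had 40.2, 40.7 and 51.6 CPM under resting MSC-CM and 34.2, 37.1 and 40.4 CPM under TLR-MSC-CM, which overlap, and was lower by 0.26 on the log2 scale (unadjusted p = 0.0181 in edgeR's test). COX8A had 170, 173 and 212 CPM under resting MSC-CM and 147, 167 and 172 CPM under TLR-MSC-CM, lower by 0.20. In both genes the highest value was that of the resting library of donor ORC. COX7A1, the heart and muscle form of a complex IV subunit, had 10.1, 10.7 and 11.5 CPM under resting MSC-CM, 12, 12.9 and 13.6 CPM under TLR-MSC-CM and 12.7, 12.8 and 15.4 CPM under STING-MSC-CM. The resting libraries lay below the other 6, and the difference under STING-MSC-CM was 0.33 on the log2 scale (SE 0.106, unadjusted p = 0.00748 in edgeR's test).

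In macrophages, NDUFB4, an accessory subunit of complex I, had 55.2, 60.4 and 61.8 CPM under resting MSC-CM and 48.3, 49.8 and 51.1 CPM under STING-MSC-CM, lower by 0.25 without overlap (unadjusted p = 0.0344 in edgeR's test). NDUFA4L2 had 1.38, 1.97 and 3.25 CPM under resting MSC-CM and 0.655, 1.31 and 1.58 CPM under STING-MSC-CM, which overlap, lower by 0.90 with an SE of 0.479. The median over members was -0.01 under TLR-MSC-CM and -0.05 under STING-MSC-CM, and in chondrocytes it was 0.02 and -0.01. In synoviocytes it was -0.06 and -0.03.

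Whether the response differed between cell types was tested as an interaction. With edgeR, 0 of 69 members passed an adjusted p of 0.05 in any of the 6 such contrasts, where 0% of the 16584 genes tested did. DESeq2 also called 0 members, but its share of all genes is not given here. These fits have no donor term. With the donor as a block, 0 members passed, and of all genes 0 passed for TLR-MSC-CM and 1 to 17 for STING-MSC-CM. At an unadjusted p under 0.05 the members counted 0 for TLR-MSC-CM, where 1.72% of genes passed for chondrocytes against synoviocytes, 3.99% for macrophages against synoviocytes and 2.64% for macrophages against chondrocytes. For STING-MSC-CM they counted 0, 1 and 0, where 1.74%, 4.38% and 3.59% of genes passed. The 1 was NDUFA4L2, and its change under STING-MSC-CM was lower in macrophages than in synoviocytes by 0.94 on the log2 scale (SE 0.423).

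MSC held the widest spread between libraries of a condition. The share of counts on all members was 0.627%, 0.801% and 0.999% in the untreated libraries of donors PC, 99 and 92. It was 0.604%, 1.04% and 0.841% with the TLR3 agonist, 0.707%, 1.07% and 0.80% with the STING agonist, and 0.709%, 0.787% and 0.755% with CpG, in the same donor order. The means were 0.809% ± 0.186 (SD, n = 3), 0.830% ± 0.220, 0.859% ± 0.188 and 0.750% ± 0.0394, and the 4 conditions overlapped.

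The differences from untreated varied in sign between donors. With the TLR3 agonist the median member was lower by 0.32 on the log2 scale in donor 92, with 0 of 69 above 0, higher by 0.48 in donor 99, with 67 above 0, and at -0.02 in donor PC, with 32 above 0. With the STING agonist the medians were -0.43, 0.40 and 0.15, with 2, 68 and 56 members above 0. With CpG they were -0.43, -0.09 and 0.21, with 1, 18 and 65 above 0. Medians over all genes were near 0 in each. Each of these values is the difference of 1 library from 1 other and has no test. All agents of a donor share its untreated library, so their signs within a donor are not independent. Among the untreated libraries, that of donor 92 had the highest share of counts on the members, 0.999%. That of donor PC had the lowest, 0.627%.

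**Figure D5:**
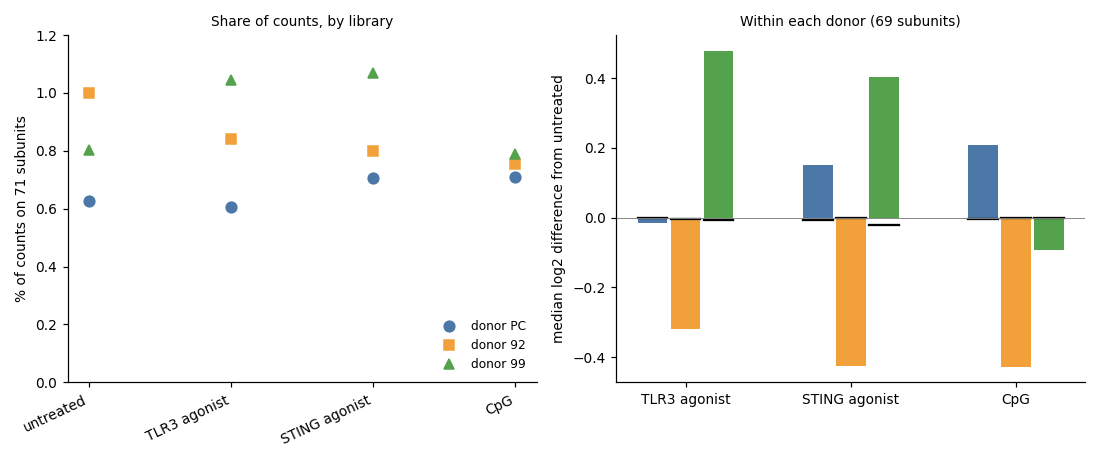
Left, share of all counts (%) on the 71 subunits in each MSC library by condition and donor. Right, bars give the median log2 difference from the untreated library of the same donor over 69 members, and black lines the median over all genes. Bars for donor 92 are below 0 with each of the 3 agents, and those for donor 99 are above 0 with the TLR3 and STING agonists. All bars of a donor share the same untreated library.

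With the TLR3 agonist, the medians of all 5 complexes had the same sign within donor 99 and within donor 92. In donor 99 with the TLR3 agonist the medians were 0.48 for complex I, 0.16 for II, 0.46 for III, 0.64 for IV and 0.44 for V. In donor 92 with the same agonist they were -0.32, -0.21, -0.32, -0.33 and -0.33. Over all 4 conditions, donor PC had the lowest mean of the 3 donors for 64 of 69 members, where 30.9% of genes were lowest in that donor, and donor 99 the highest for 56 of 69, where 32.2% were. The 4 libraries of donor PC lay below the other 8 for 18 of 69 members, where 7.38% of genes did.

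NDUFA4L2 and COX7A1 varied most among MSC libraries of the named members other than COX6B2. NDUFA4L2 had 270 to 360 CPM in the 4 libraries of donor 99 and at most 177 CPM in the other 8. COX7A1 had 6.06, 11.4 and 15.3 CPM untreated in donors PC, 92 and 99, 16.3, 7.20 and 43.0 CPM with the TLR3 agonist, 22.4, 18.2 and 53.3 CPM with the STING agonist, and 7.80, 6.45 and 11.4 CPM with CpG. All 3 donors were higher with the STING agonist than untreated, a log2 difference of 1.56 (SE 0.692) that did not pass the test (edgeR adjusted p = 1, unadjusted p = 0.0525). With the donor as a block the difference was 1.41 and the edgeR adjusted p 0.211. The 14 macrophage markers moved in the same libraries, summing to 60.8 to 72.0 CPM untreated, 46.9 to 330 CPM with the TLR3 agonist, 134 to 632 CPM with the STING agonist and 45.5 to 75.2 CPM with CpG, with CD163 and AIF1 at 0 throughout. Their part in the result was not tested.

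The donor of the medium also moved with the members in 2 of the 3 joint cell types. In synoviocytes, the 3 libraries with medium of donor AG1, ORC or PC lay beyond the other 6 for 0, 1 and 3 of 69 members, where 1.3%, 2.52% and 2.94% of genes did. In chondrocytes the counts were 5, 20 and 19, where 9.49%, 37.1% and 8.88% of genes did. The 20 for ORC are 29.0% of members and below the share of all genes, and the 19 for PC are 27.5%. In macrophages the counts were 16, 15 and 6 of 68, where 13.3%, 3.95% and 7% of genes did. Of the 16 for AG1, 15 were higher, and all 15 for ORC, 22.1% of members, were lower.

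The chondrocyte libraries with medium of donor ORC stood apart most. NDUFA4L2 had 428 to 464 CPM there and 534 to 627 CPM in the other 6. The chondrocyte library with no addition, at 420 CPM, was on the ORC side, as it was for 16 of the 20 members separated, against 10 for the library with cytokines only. Both of these libraries carry the name ORC in the labels, although they had no CM. The macrophage libraries without CM also carry that name. Each of those was on the ORC side for 0 of 15 members, on the AG1 side for 15 of 16 and on the PC side for 6 of 6. Shares over all genes were not counted for these sides. Chosen after the data were seen, the 3 treatment comparisons in chondrocytes were refitted on the 6 libraries with medium of the other donors. In each, 0 of 69 members and 0 of all genes were called, and 0 members had an unadjusted p under 0.05 in edgeR's test. The medians over members were 0.011 (TLR-MSC-CM against resting), -0.0080 (STING-MSC-CM against resting) and -0.013 (STING against TLR). The cause of the ORC separation was not tested.

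Cytokines alone and medium over cytokines rest on 1 library without cytokines and 1 with cytokines only per cell type. With 1 CPM added to each value, no member differed by more than 1 on the log2 scale. In cytokines against no addition, 2.6% of genes did in synoviocytes, 6.58% in chondrocytes and 0.0725% in macrophages, and in resting MSC-CM against cytokines only 0.0271%, 0.428% and 0.349% did. COX6B2, which lies under 1 CPM, passed that limit with cytokines in synoviocytes and chondrocytes when 0.1 CPM was added instead, at 2.23 and 2.35, where 8.52% and 14.01% of genes passed. With cytokines the median member moved by 0.01 in synoviocytes, 0.09 in chondrocytes and -0.04 in macrophages. In synoviocytes the medians ran from -0.07 in complex V, with 4 of 13 members above 0, to 0.19 in complex II, with 4 of 4. In chondrocytes they ran from 0.02 in complex V to 0.22 in complex II, with 3 of 4, and complex III was at 0.19 with 7 of 7. In macrophages they ran from -0.06 in complex I to 0.05 in complex II, and complex III had 1 of 7 above 0.

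A fit of all 11 libraries of a cell type, chosen after the data were seen, lends the single libraries the spread of the 3 groups with CM and assumes that they vary alike. With cytokines, COX7A2 passed in synoviocytes (log2 0.47, SE 0.112, edgeR adjusted p = 0.0211), 1 of 69 members where 7.03% of genes passed. No member passed in chondrocytes, where 0.966% of genes did, or in macrophages, where 0% did. At an unadjusted p under 0.05 the counts were 7, 6 and 0, where 19%, 15% and 1.01% of genes passed. Over the 3 cell types together, with cell type as a term, 0 members and 0% of genes passed, and 2 members, COX6B2 and COX7A1, had an unadjusted p under 0.05, where 9.26% of genes did.

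For resting MSC-CM against cytokines only, 0 members and 0% of genes passed in each cell type with edgeR. At an unadjusted p under 0.05 the members counted 0 in synoviocytes, 1 in chondrocytes and 9 of 68 in macrophages, all 9 lower, where 4.21%, 2.68% and 3.79% of genes passed. DESeq2 was not run on these fits.

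Beside COX7A2, the values of COX7A1 and COX6B2 with cytokines are given as a description, since neither passed. COX7A1 went from 9.04 to 12.8 CPM in synoviocytes and from 8.74 to 13.5 CPM in chondrocytes, and COX7A2, its widely expressed paralog, from 57.6 to 79.7 CPM and from 60.9 to 94.6 CPM. In macrophages COX7A1 was at 22.4 and 23.4 CPM. COX6B2 went from 3 to 22 counts in synoviocytes and from 1 to 24 in chondrocytes. Its ratio was 8.43 with a 95% exact interval of 2.53 to 44.0 in synoviocytes and 15.7 with an interval of 2.56 to 647 in chondrocytes. Each is 1 library against 1 other, so the intervals cover counting error only and not the spread between cultures.

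With resting MSC-CM added to cytokines, the median member was lowest relative to cytokines only in macrophages. The mean of the resting MSC-CM libraries differed from the cytokines-only library by a median of -0.23 in macrophages, with 4 of 68 members above 0, where 53.0% of all genes were above 0. The median was -0.13 in chondrocytes, with 8 of 69 above 0, and 0.03 in synoviocytes, with 37 above 0. COX7A1 had 23.4 CPM in the macrophage library with cytokines only and 11.95, 16.5 and 17.5 CPM under resting MSC-CM. NDUFV1 had 136 CPM and a resting mean of 106 CPM. The macrophage difference rests on the 1 cytokines-only library.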

How the data were processed

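RNA was sequenced from 12 MSC and 33 joint cell libraries. The deposited values are raw counts per gene: the authors made them with cutadapt 1.12 for trimming, STAR for alignment to EquCab3.0 and HTSeq 0.11.0 for protein coding genes of the Ensembl annotation, without normalization. The submitters' notes also name DESeq2. The agonist dose is 10 ng/mL in the labels but 10 µg/mL in the design text.

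Counts were tested with edgeR 4.0.16 in R 4.3.3 (quasi-likelihood, TMM scaling, at least 10 counts in total per gene), with Benjamini-Hochberg adjustment over all genes and a threshold of 0.05. Cell types were compared under resting MSC-CM, treatments within a cell type, and interactions over 27 libraries. CPM values are TMM-scaled within a table. Single libraries were compared on log2(CPM + 1) and, chosen after seeing the data, in a fit of the 11 libraries of a cell type. Depth was 23525704 to 54103873 counts per library. Alternatives were DESeq2 1.42.0, other scalings and filters, a donor block and leaving out each library. A further one, chosen after seeing the data, left out the chondrocyte libraries with medium of donor ORC. The main fits other than those for CpG and the interactions, and the fits of 11 libraries, were tested on simulated data without a donor effect. The fits for CpG, for the interactions and with a donor block were not.

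Donor numbers paired the MSC, chondrocyte and macrophage libraries: same-donor deviations had a median correlation of 0.776, 0.415 and 0.181, all 9 pairs over 0.1 in each. In synoviocytes (0.012) and across cell types (0.047) they did not.

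Members and lists were chosen with earlier results of these data known. Named genes were paralogs, core subunits, the highest and lowest members of a complex, and per comparison up to 8 called members with the largest change or the 3 with the smallest p. No genome of the build was used, so no gene lengths, coordinates or sequences are given, and levels are compared between genes only as ratios across cell types.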

Additional observations from a re-analysis of the deposited data

Results flagged for a closer look

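The 3 comparisons between media were set side by side in pairs of joint cell types, for the summed CPM of each complex and of all members, 54 searches in all, and 3 had every donor's library moving one way in one cell type and the opposite way in the other. The difference was not tested in any of them. Summed over all members, TLR-MSC-CM minus resting MSC-CM was below 0 on the log2 scale in synoviocytes, at -0.029, -0.14 and -0.0018 for donors PC, ORC and AG1, and above 0 in macrophages, at 0.032, 0.022 and 0.026, a difference of means of -0.0837. For complex I it was -0.032, -0.071 and -0.020 in synoviocytes and 0.0022, 0.035 and 0.051 in chondrocytes, a difference of -0.0704. For complex IV it was -0.027, -0.18 and -0.015 in synoviocytes and 0.0082, 0.0050 and 0.026 in macrophages, a difference of -0.0882. The synoviocyte library of donor ORC gave the lowest value in all 3. No group had the 4 or more samples that a search for outlying samples needs.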

How the results depend on the processing

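The counts of members in the comparisons with macrophages moved little: leaving out each library gave 54 to 59 called against synoviocytes and 60 to 64 against chondrocytes, and the median against chondrocytes ran from 0.71 to 0.79. Scaling by DESeq2's size factors gave 60 and 64, and DESeq2 itself 60, 64 and, between chondrocytes and synoviocytes, 5. The fit of all 27 libraries gave 66 and 68. The main fits called 60 and 62 members, where 36.6% of all genes were higher in both and 35.1% and 34.9% lower. Between chondrocytes and synoviocytes the main fit called 18.1% of all genes. For these alternatives with macrophages and for DESeq2 the share of all genes is not given here. Of 586 alternatives over 50 counts and medians, 573 were taken as the same as the main value. For a count this meant equal or within a factor of 1.5, and for a median within the spread between replicates. Medians near 0 did change sign: 16 of 28 did so in at least 1 alternative, each with a main size of at most 0.148. In MSC, where the main medians were 0.12 with the TLR3 agonist, 0.10 with the STING agonist and -0.15 with CpG, leaving out the TLR library of donor 99 gave -0.19 and the STING library of donor 99 -0.17. Without the untreated library of donor PC these were -0.039 and -0.049, and without that of donor 92 CpG gave 0.042, so these directions rest on single libraries. For the single libraries of joint cells, the fits of 11 libraries gave medians within the spread of those reported. In chondrocytes against synoviocytes the count of 4 was 20 with all 27 libraries, and 1 to 6 when 1 library was left out; fewer libraries were then tested. With total-count scaling the median change with cytokines in chondrocytes was 0.045. Leaving out 1 library moved the median of STING against TLR-MSC-CM in chondrocytes from -0.02 to between -0.077 and 0.0047. It moved the medians of the interactions with TLR-MSC-CM from 0.07 to between 0.037 and 0.11 (chondrocytes against synoviocytes), from 0.05 to between -0.0038 and 0.12 (macrophages against synoviocytes) and from -0.03 to between -0.067 and 0.047 (macrophages against chondrocytes). With STING-MSC-CM it moved them from -0.05 to between -0.091 and 0.026 and from -0.04 to between -0.088 and 0.028 for macrophages against synoviocytes and against chondrocytes. For these shifts the cause was not tested.

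Single genes changed sign as follows. With all 27 libraries, chondrocytes against synoviocytes gave 0.015 for COX6B2, 0.042 for COX7A2, 0.012 for ATP5MC2 and 0.036 for NDUFV1, and macrophages against synoviocytes 0.0033 for ATP5MC2. Leaving out 1 library, chondrocytes against synoviocytes ran from -0.31 to 0.11 for COX6B2, -0.18 to 0.060 for COX7A1, -0.042 to 0.048 for COX7A2, -0.10 to 0.049 for ATP5MC2, -0.087 to 0.033 for NDUFV1, -0.0035 to 0.096 for NDUFA9, -0.042 to 0.032 for SDHB, -0.12 to 0.11 for SDHD and -0.035 to 0.041 for UQCRB. ATP5MC2 ran from -0.12 to 0.019 for macrophages against synoviocytes and from -0.12 to 0.065 against chondrocytes. In MSC, SDHB with the TLR3 agonist, at 0.22, ran from -0.0046 to 0.38, COX7A1 with STING against TLR3 agonist, at 0.49, from -0.13 to 1.44 and COX6B2 with CpG from -3.58 to 0.098.

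With the replicate block, which pairs libraries by donor, 0 members were called in all treatment and interaction comparisons. In the comparisons with macrophages it called 60 and 62 members, where 11114 and 11119 of 15599 genes were called. Between chondrocytes and synoviocytes it called 3 members, where 3027 genes were called, and ATP5PO was lost. Over all genes the block called 80 for macrophages under STING-MSC-CM against resting MSC-CM and 336 against TLR-MSC-CM, where 0 were called without it, and 2 each in MSC with the STING agonist and in chondrocytes under STING-MSC-CM. In the interactions with STING-MSC-CM it called 1 gene for chondrocytes against synoviocytes. For macrophages it called 6 against synoviocytes and 17 against chondrocytes. The 3 libraries per condition limit what a treatment comparison can show, and genes with counts near the floor, such as COX6B2, are known only to their counting error.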
